A study of Bos indicus x Bos taurus with 20 samples.

Results

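The peroxiredoxin and thioredoxin genes of bovine cleavage embryos were followed from the 2-cell to the 8-cell stage, in embryos injected with METTL7A mRNA or with vehicle. The set was a fixed list of 10 symbols, PRDX1 to PRDX6, TXN, TXN2, TXNRD1 and TXNIP, and all 10 were present among the 30675 genes of the 2-cell and 8-cell count table. All 10 also passed the low-count filter that left 16149 genes for testing. Zygotes of Bos indicus x Bos taurus, labelled wild type, received METTL7A mRNA transcribed in vitro or vehicle alone, and the title of the study places METTL7A, a methyltransferase of thiol compounds, in the setting of oxidative stress. The 4 groups were Control 2-cell, METTL7A 2-cell, Control 8-cell and METTL7A 8-cell, with 2 libraries each, where Control means vehicle. No group received another mRNA, so an effect of METTL7A and an effect of mRNA injection as such cannot be told apart. Whether 2 libraries of a group were made from separate embryos is not stated in the labels, so the p-values below rest on a spread that may be technical.

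Peroxiredoxins are thiol enzymes that reduce hydrogen peroxide and organic peroxides. Most of them are returned to the reduced form by thioredoxin, a small protein that thioredoxin reductase in turn reduces with electrons from NADPH. TXNIP binds reduced thioredoxin and inhibits it. Embryos before genome activation depend largely on RNA stored in the oocyte, and in cattle the main wave of embryonic transcription comes around the 8-cell stage.

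Total gene counts were 15781017 to 20737404 per library, and levels are given as CPM, the count scaled to a common library size with TMM factors. Every METTL7A library carried the injected transcript, at 18730 to 47690 CPM of METTL7A against 7.34 to 19.1 CPM in the Control libraries. Oocyte markers were found in every group, with all 10 at 1 CPM or more, at a summed level of 16750 to 21760 CPM in the 2-cell libraries, 14500 and 26980 CPM in the Control 8-cell libraries and 43800 and 41090 CPM in the METTL7A 8-cell libraries. BTG4 made up most of each 8-cell sum, at 10048 and 15958 CPM in Control and 28033 and 27138 CPM in METTL7A libraries. ZAR1, GDF9, BMP15, ZP2, ZP3, NLRP5 and MOS were lower in all 8-cell than in all 2-cell libraries. BTG4 and OOSP2 were higher and DPPA3 overlapped. Between the 8-cell treatments GDF9, BMP15, ZP3, NLRP5 and MOS overlapped. Of 7 listed genome activation markers 4 were present, and these summed to 79.4 to 98.2 CPM in the 2-cell, 2007 and 6371 CPM in the Control 8-cell and 8750 and 11560 CPM in the METTL7A 8-cell libraries. ZSCAN4 made up most of the 2-cell sums and was lower in the Control 8-cell libraries, at 24.5 and 66.5 CPM. DUXA, KLF17 and ARGFX were higher in all 8-cell than in all 2-cell libraries. Both marker sums were thus lower in both Control 8-cell libraries than in both METTL7A 8-cell libraries, and lowest of the 4 in Control 8-cell replicate 1. Control 8-cell replicate 1 stood apart. The chi-square per degree of freedom between the 2 Control 8-cell libraries was 299.2, against 2.41, 41.6 and 51.4 in the Control 2-cell, METTL7A 2-cell and METTL7A 8-cell pairs. The 17 markers of cumulus and other somatic cells summed to 6487 CPM in Control 8-cell replicate 1 and 1243 CPM in replicate 2, to 230.1 and 252 CPM in METTL7A 8-cell libraries and to 426 to 515 CPM at the 2-cell stage. Most of both Control 8-cell sums was LUM, and most of the 2-cell sums was HAS2, STAR and FBN1. The list was not uniform. In Control 8-cell replicate 1 HAS2, STAR, CYP19A1, GREM1 and FBN1 were below both METTL7A 8-cell libraries. POSTN and DCN, among others, were higher in Control 8-cell replicate 2 than in replicate 1. LUM, a matrix proteoglycan gene, stood at 4773 and 667 CPM in the Control 8-cell libraries and at 1.25 and 1.51 CPM in the METTL7A 8-cell libraries, while TNFAIP6, CYP11A1, FSHR, POSTN and COL3A1 had 0 counts in the Control 2-cell libraries, CYP11A1, LUM, DCN, COL1A1 and VIM in the METTL7A 2-cell libraries, and FSHR in the METTL7A 8-cell libraries.

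The same library was high for the peroxide-reducing genes. All 10 genes of the set were higher in Control 8-cell replicate 1 than in replicate 2, by 1.34 to 5.43 times (median 2.95), whereas the median ratio over 15827 tested genes was 0.96. In the METTL7A 8-cell pair 3 of the 10 were higher in replicate 1 (median ratio 0.865), in the METTL7A 2-cell pair 8 (median 1.31), and in the Control 2-cell pair 5 (median 1.01). The part of the somatic cell, oocyte and activation markers in these differences was not tested. In whole embryos, fewer cells of a type and less RNA per cell cannot be told apart. Beside the changes called in comparisons with Control 8-cell embryos, the values without replicate 1 are therefore also given.

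**Figure D1:**
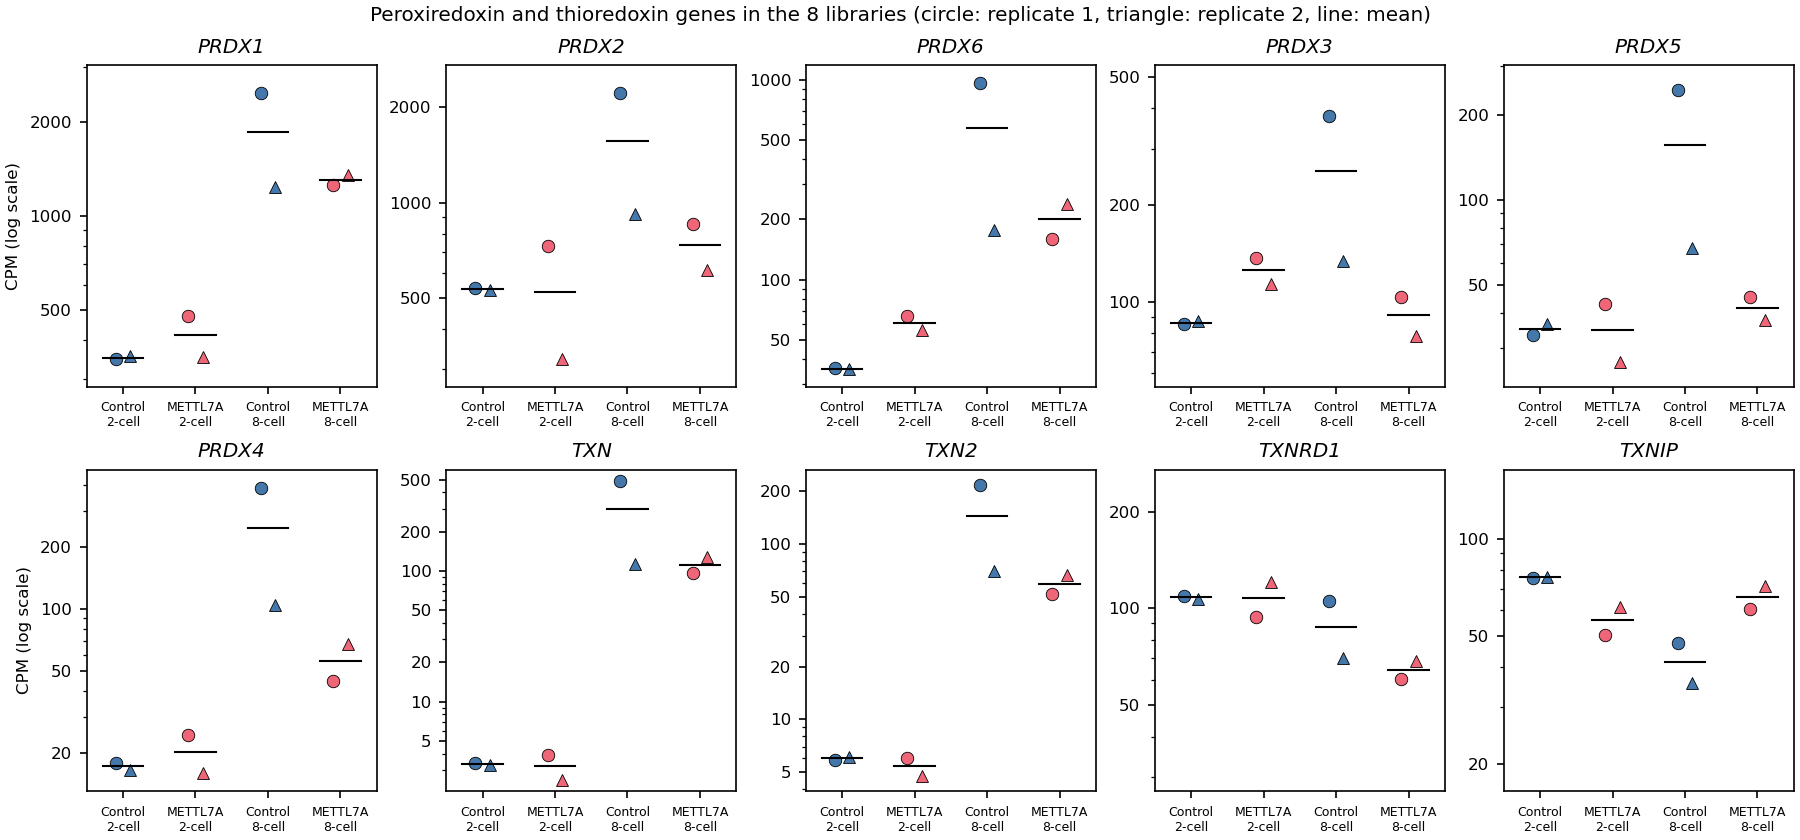
CPM on a logarithmic axis of the 10 genes in the 8 libraries, with circles for replicate 1, triangles for replicate 2, a line for the group mean, blue for Control and red for METTL7A. TXN moves from 2.52 to 3.92 CPM at the 2-cell stage to 96.2 to 489 CPM at the 8-cell stage, and Control 8-cell replicate 1 (blue circle) is the highest library for 8 of the 10 genes, all but TXNRD1 and TXNIP.

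From the 2-cell to the 8-cell stage of Control embryos 8 of the 10 genes rose, 1 fell and 1 did not pass the test. Both thioredoxins and all 6 peroxiredoxins rose, by 2.93-fold (PRDX2) to 90.8-fold (TXN). TXNIP fell, and the reductase gene TXNRD1 did not pass. Of all 16149 genes tested, 52.7% changed between these groups, 29.9% upwards and 22.8% downwards. In 10 of the 10 genes the libraries of the 2 stages did not overlap, 8 being higher and 2 lower at the 8-cell stage, as 40.8% and 38.2% of all genes were. The median log2 fold change was 2.29 over the 10 genes and 0.18 over all genes. All tests are edgeR quasi-likelihood tests with Benjamini-Hochberg adjustment over all genes tested, 2-sided, with a threshold of 0.05, and fold changes come from that fit.

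TXN encodes the cytosolic and nuclear thioredoxin. TXN stood at 3.38 and 3.24 CPM in Control 2-cell libraries, from 82 and 75 counts, and at 489 and 113 CPM in Control 8-cell libraries, from 8733 and 1923 counts. Even the lower 8-cell library was far above both 2-cell libraries, and the log2 fold change was 6.51 (SE 0.718, edgeR adjusted p = 0.00022), or 5.07 without Control 8-cell replicate 1. TXN2, the thioredoxin of mitochondria, rose from 5.90 and 6.14 CPM to 217 and 70.7 CPM, a log2 fold change of 4.58 (SE 0.542, edgeR adjusted p = 0.000282). Without Control 8-cell replicate 1 the change of TXN2 was 3.54. Both kept their call under all 14 alternative settings.

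Among the cytosolic peroxiredoxins, PRDX1 stood at 346 and 356 CPM in Control 2-cell and at 2483 and 1235 CPM in Control 8-cell libraries. The groups did not overlap, and PRDX1 rose by a log2 fold change of 2.41 (SE 0.391, edgeR adjusted p = 0.00114), or 1.80 without Control 8-cell replicate 1. PRDX6, which is reduced with glutathione and also has phospholipase activity, stood at 36.0 and 35.6 CPM and then at 965 and 178 CPM. PRDX6 rose 16-fold (log2 SE 0.69, edgeR adjusted p = 0.00153), and its log2 fold change was 2.30 without Control 8-cell replicate 1. PRDX2, the close relative of PRDX1 known for its abundance in red blood cells, stood at 540.3 and 531 CPM and then at 2216 and 925 CPM. PRDX2 rose by 1.55 (SE 0.503, edgeR adjusted p = 0.0275), but its call was lost without Control 8-cell replicate 1 (0.77, edgeR adjusted p = 0.141), without either Control 2-cell library and without either METTL7A 8-cell library.

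The peroxiredoxins of organelles rose as well in Control embryos. PRDX4, which resides in the endoplasmic reticulum, stood at 17.9 and 16.5 CPM in the 2-cell and at 388 and 105 CPM in the 8-cell libraries, a log2 fold change of 3.84 (SE 0.598, edgeR adjusted p = 0.000933). The value was 2.59 without Control 8-cell replicate 1. PRDX5, found in mitochondria, peroxisomes and the cytosol, went from 33.4 and 36.5 CPM to 246 and 67.7 CPM and PRDX3, the mitochondrial peroxiredoxin, from 85.1 and 87.1 CPM to 378 and 134 CPM. Their log2 fold changes were 2.17 (SE 0.542, edgeR adjusted p = 0.00888) and 1.57 (SE 0.444, edgeR adjusted p = 0.0153). Without Control 8-cell replicate 1 PRDX5 stood at 0.94 and PRDX3 at 0.62, the latter with its call lost (edgeR adjusted p = 0.0612). Without Control 2-cell replicate 1 both lost their calls (edgeR adjusted p = 0.0536 and 0.0859), and PRDX3 also without Control 2-cell replicate 2 (edgeR adjusted p = 0.0826).

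The reductase and the inhibitor went the other way or stayed within the error. TXNRD1, the cytosolic thioredoxin reductase, a selenoprotein, stood at 109.5 and 107 CPM in Control 2-cell and at 105.5 and 70.0 CPM in Control 8-cell libraries, a log2 fold change of -0.30 (SE 0.298, edgeR adjusted p = 0.42), or -0.65 without Control 8-cell replicate 1 (edgeR adjusted p = 0.0587). TXNIP stood at 75.7 and 75.9 CPM and then at 47.5 and 35.5 CPM. Both 8-cell libraries were below both 2-cell libraries, and TXNIP fell by 0.87 on the log2 scale (SE 0.289, edgeR adjusted p = 0.0305), or by 1.11 without Control 8-cell replicate 1. With another scaling of the libraries, DESeq2 size factors in edgeR, the median of all genes moved from 0.18 to 0.29 and TXNIP lost its call (-0.75, edgeR adjusted p = 0.0569). It was also lost without either Control 2-cell library (edgeR adjusted p = 0.154 and 0.149).

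In METTL7A-injected embryos 3 of the 10 genes rose from the 2-cell to the 8-cell stage, TXN, TXN2 and PRDX1, 0 fell and 7 did not pass. Of all genes 40.2% changed, 23.1% upwards and 17.1% downwards. TXN stood at 3.92 and 2.52 CPM in METTL7A 2-cell and at 96.2 and 128 CPM in METTL7A 8-cell libraries, a log2 fold change of 5.13 (SE 0.678, edgeR adjusted p = 5e-04). The rise of TXN2, from 6.03 and 4.78 CPM to 52.1 and 66.7 CPM, was 3.46 (SE 0.518, edgeR adjusted p = 0.00094). PRDX1 rose from 478 and 351 CPM to 1250.4 and 1356 CPM (1.65, SE 0.381, edgeR adjusted p = 0.00808), a call lost without METTL7A 2-cell replicate 2 (edgeR adjusted p = 0.0983) or METTL7A 8-cell replicate 2 (edgeR adjusted p = 0.06).

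For PRDX6 and PRDX4 the METTL7A groups did not overlap but the test was missed. PRDX6 stood at 65.7 and 55.7 CPM and then at 160.3 and 239.6 CPM (log2 fold change 1.72, SE 0.63, edgeR adjusted p = 0.0551), and PRDX4 at 24.5 and 16.0 CPM and then at 44.5 and 67.8 CPM (1.47, SE 0.548, edgeR adjusted p = 0.0584). Both passed by DESeq2 (adjusted p = 0.0134 and 0.0218), without the low-count filter, in a fit of these 2 groups alone and without either Control 8-cell library. By DESeq2 5 of the 10 genes rose, as 25.4% of all genes did. Non-overlap was common, since 38.5% of all genes were higher in both 8-cell libraries than in both 2-cell libraries and 37.1% were lower.

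PRDX2, PRDX3 and PRDX5 gave small values of mixed sign in METTL7A-injected embryos. PRDX2 stood at 728 and 322 CPM in the 2-cell and at 860.2 and 613 CPM in the 8-cell libraries (log2 fold change 0.49, SE 0.493), and PRDX5 at 42.8 and 26.8 CPM and then 45.5 and 37.7 CPM (0.26, SE 0.523). PRDX3 stood lower in both 8-cell libraries, at 103 and 78.4 CPM against 137 and 114 CPM (-0.46, SE 0.435). TXNRD1 was lower too, at 60.4 and 68.5 CPM against 93.8 and 121 CPM (-0.74, SE 0.3, edgeR adjusted p = 0.0776), and passed without either Control 8-cell library (edgeR adjusted p = 0.0113 and 0.0121). TXNIP stood at 50.3 and 61.4 CPM and then at 60.3 and 71.1 CPM, with overlapping groups (0.23, SE 0.287).

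**Figure D2:**
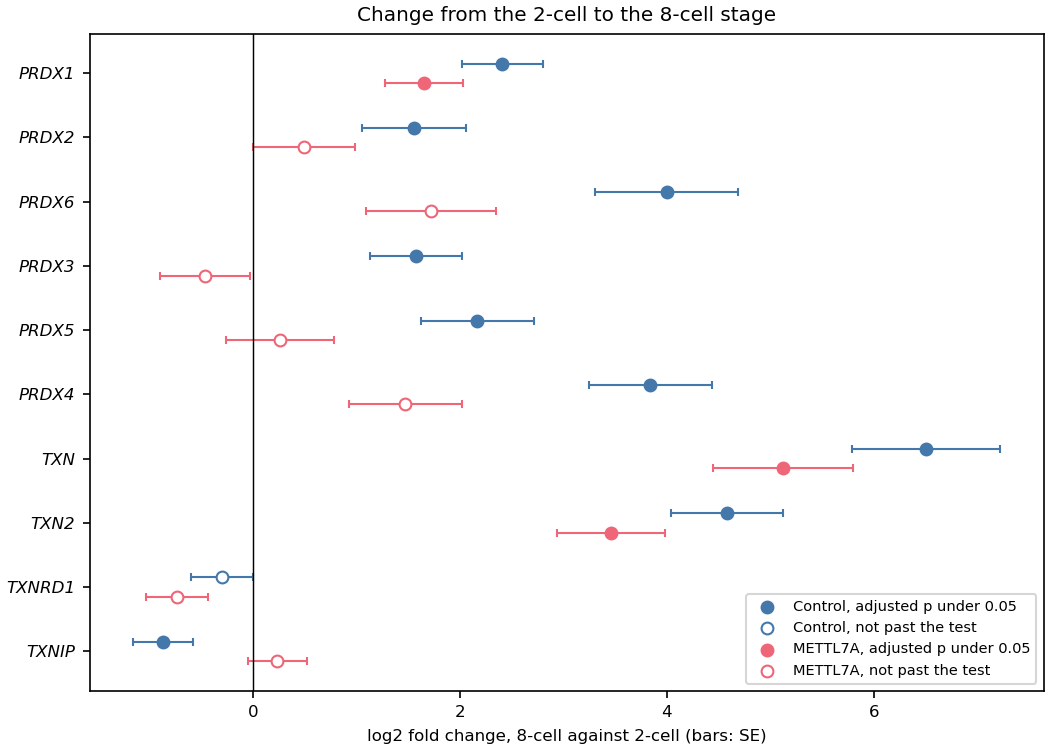
Fitted log2 fold change from the 2-cell to the 8-cell stage of the 10 genes with its SE, in blue for Control and red for METTL7A-injected embryos, filled where the edgeR adjusted p was under 0.05. TXN is at 6.51 and 5.13 and TXN2 at 4.58 and 3.46, and the Control value is above the METTL7A value for 9 of the 10 genes, TXNIP being the exception, with 0 of the 10 differences past the test.

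The difference between the 2 stage changes, which equals the difference of the METTL7A effect between the stages, was tested directly and 0 of the 10 genes passed by edgeR. It was largest for PRDX4 (log2 difference -2.37, SE 0.769, edgeR adjusted p = 0.212), PRDX6 (-2.28, SE 0.877, edgeR adjusted p = 0.262) and PRDX3 (-2.04, SE 0.62, edgeR adjusted p = 0.204). TXNIP had the only positive difference (1.10, SE 0.407, edgeR adjusted p = 0.249). Over all genes 0.0124% passed by edgeR. At an unadjusted p under 0.05 edgeR gave 5 of the 10 and 16% of all genes, and DESeq2 called 2, PRDX3 and PRDX4, both lower (-2.13 and -2.46, adjusted p = 0.0364 and 0.041), as it did 4.22% of all genes. Without Control 8-cell replicate 1, 0 of the 10 passed and the values ran from -1.13 to 1.33, and without replicate 2, 7 passed, with 26.1% of all genes.

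In 2-cell embryos 0 of the 10 genes differed between METTL7A-injected and Control embryos by edgeR, 0 had an unadjusted p under 0.05 and DESeq2 called 0. Of all genes 0.0124% passed, 2 genes in number, 7.41% had an unadjusted p under 0.05 and DESeq2 called 0.978%. The median log2 fold change was -0.01 over the set and 0 over all genes. PRDX6 and PRDX3 were higher in both METTL7A libraries than in both Control libraries, with log2 fold changes of 0.76 (SE 0.618, edgeR adjusted p = 0.889) and 0.54 (SE 0.435, edgeR adjusted p = 0.887), and TXNIP was lower in both (-0.44, SE 0.287, edgeR adjusted p = 0.84). Such separation was found for 26.9% of all genes upwards and 30.5% downwards. The other 7 overlapped between the groups, with TXN at -0.05 (SE 0.606), TXN2 at -0.16 (SE 0.483) and TXNRD1 at -0.01 (SE 0.298). In a fit of the 2-cell groups alone PRDX6 rose (0.81, edgeR adjusted p = 0.0414). That fit called 1005 of all genes, against 2 in the fit of all libraries.

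At the 8-cell stage 0 of the 10 genes passed by edgeR between METTL7A-injected and Control embryos, although 9 had lower values after METTL7A. Of all genes 5.29% passed, 0.737% upwards and 4.55% downwards. The median log2 fold change of the set was -1.35, against 0.14 over all genes. At an unadjusted p under 0.05 there were 7 of the 10 and 26.6% of all genes. DESeq2 called 3, all lower, PRDX4, PRDX5 and PRDX3 (adjusted p = 0.00228, 0.0061 and 0.0152), and 10.6% of all genes as lower. Without the low-count filter edgeR called 7 lower, PRDX2 to PRDX6, TXN and TXN2, and 9.57% of all genes. These Control 8-cell libraries are the same ones that enter the stage comparison of Control embryos, so the results of the 2 comparisons are not independent.

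PRDX4 had the lowest value. The METTL7A 8-cell libraries stood at 44.5 and 67.8 CPM and the Control 8-cell libraries at 388 and 105 CPM, a log2 fold change of -2.14 (SE 0.556, edgeR adjusted p = 0.0571). It passed in 5 of 14 alternatives, among them without Control 2-cell replicate 2 (-2.23, edgeR adjusted p = 0.0499). PRDX5 stood at 45.5 and 37.7 against 246 and 67.7 CPM (-1.92, SE 0.538, edgeR adjusted p = 0.0675). PRDX3 stood at 103 and 78.4 against 378 and 134 CPM (-1.50, SE 0.443, edgeR adjusted p = 0.0782). In these 3 genes both METTL7A libraries were below both Control libraries, as were those of PRDX2 (-1.09, SE 0.497, edgeR adjusted p = 0.197), TXN2 (-1.28, SE 0.472, edgeR adjusted p = 0.13) and TXNRD1 (-0.45, SE 0.299, edgeR adjusted p = 0.362). TXNIP was the 1 gene with both METTL7A libraries above both Control libraries (0.66, SE 0.289, edgeR adjusted p = 0.182). Such separation was found for 22.4% of all genes downwards and 28.1% upwards.

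For PRDX1, PRDX6 and TXN the groups overlapped. Control 8-cell replicate 2 stood at 1235 CPM for PRDX1, at 178 CPM for PRDX6 and at 113 CPM for TXN, and the METTL7A libraries were at 1250.4 and 1356, at 160.3 and 239.6 and at 96.2 and 128 CPM. With all libraries the log2 fold changes were -0.51 (SE 0.373, edgeR adjusted p = 0.4), -1.52 (SE 0.625, edgeR adjusted p = 0.163) and -1.43 (SE 0.57, edgeR adjusted p = 0.153).

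The 8-cell values depended on which Control library was kept. Without Control replicate 1, 0 of the 10 genes passed, the median of the set was -0.19, and PRDX1 (0.07) and PRDX6 (0.16) turned positive. TXN was then at -0.01, TXN2 at -0.26, PRDX2 at -0.33 and TXNRD1 at -0.13, and the lowest values were those of PRDX4 (-0.90, edgeR adjusted p = 0.198), PRDX5 (-0.71, edgeR adjusted p = 0.269) and PRDX3 (-0.57, edgeR adjusted p = 0.264). Without Control replicate 2, 9 of the 10 passed as lower, all but TXNIP, with a median of -1.94, and 20.8% of all genes were called lower, against 4.55% with all libraries. TXNIP kept a positive value without either library (0.88 and 0.49, edgeR adjusted p = 0.127 and 0.156).

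**Figure D3:**
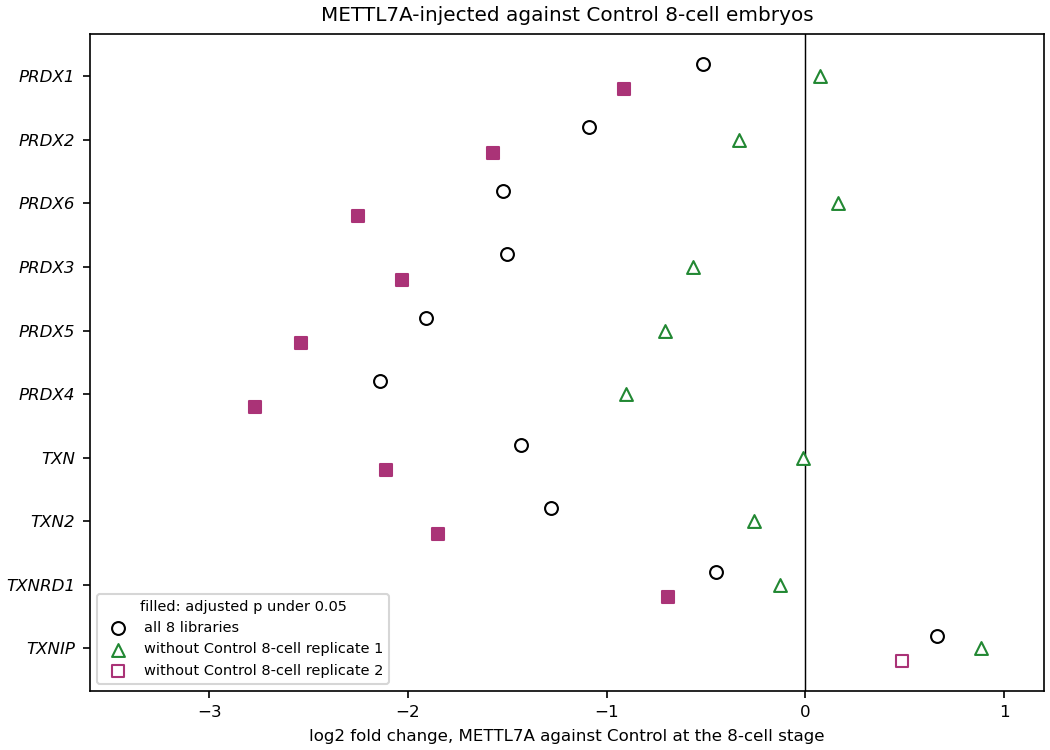
Fitted log2 fold change between METTL7A-injected and Control 8-cell embryos for the 10 genes, with all 8 libraries (circles), without Control 8-cell replicate 1 (triangles) and without Control 8-cell replicate 2 (squares), filled where the edgeR adjusted p was under 0.05. The triangles lie between -0.90 and 0.88 with 0 filled, and 9 of the 10 squares are filled.

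The thioredoxins were ordered alike by group mean. TXN stood at 3.22 ± 0.991 CPM in METTL7A 2-cell, 3.31 ± 0.0977 CPM in Control 2-cell, 112 ± 22.5 CPM in METTL7A 8-cell and 301 ± 266 CPM in Control 8-cell embryos (mean ± SD, n = 2 each). TXN2 stood at 5.40 ± 0.884, 6.02 ± 0.172, 59.4 ± 10.3 and 144 ± 104 CPM in the same groups. In both genes the 2 treatments of a stage did not pass the test, and all 4 libraries of the 8-cell stage lay above all 4 of the 2-cell stage. TXNIP had another order, with Control 8-cell lowest at 41.5 ± 8.51 CPM, then METTL7A 2-cell at 55.9 ± 7.81, METTL7A 8-cell at 65.7 ± 7.61 and Control 2-cell highest at 75.8 ± 0.129 CPM. Of the 4 pairs of groups tested, only its lowest and highest passed the edgeR test with all libraries. TXNRD1 ran from 64.4 ± 5.72 CPM in METTL7A 8-cell over 87.8 ± 25.1 CPM in Control 8-cell and 108 ± 19.4 CPM in METTL7A 2-cell to 108 ± 1.77 CPM in Control 2-cell embryos, and 0 of its comparisons passed with all libraries.

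Ratios of counts within a library do not depend on the scaling of libraries. They were chosen after the values were seen, are not corrected for transcript length and are given with no test. TXN counts per TXNIP count were 0.0447 and 0.0427 in Control 2-cell, 0.078 and 0.0411 in METTL7A 2-cell, 10.3 and 3.18 in Control 8-cell and 1.6 and 1.8 in METTL7A 8-cell libraries. The lowest 8-cell ratio was thus above the highest 2-cell ratio in both treatments. TXN counts per TXNRD1 count were 0.0208 to 0.0418 in the 2-cell libraries, 4.64 and 1.61 in Control 8-cell and 1.59 and 1.87 in METTL7A 8-cell libraries. For the mitochondrial pair, TXN2 counts per count of its reductase TXNRD2 were 1.21 to 1.89 at the 2-cell stage, 34 and 54.8 in Control 8-cell and 44.1 and 72.5 in METTL7A 8-cell libraries, of which the TXNRD2 counts numbered only 11 to 118. PRDX1 and PRDX2 together took 62.3% to 77.2% of the reads of the 10 genes in every library, while the share of TXN was 0.235% to 0.27% at the 2-cell and 3.52% to 6.49% at the 8-cell stage.

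**Figure D4:**
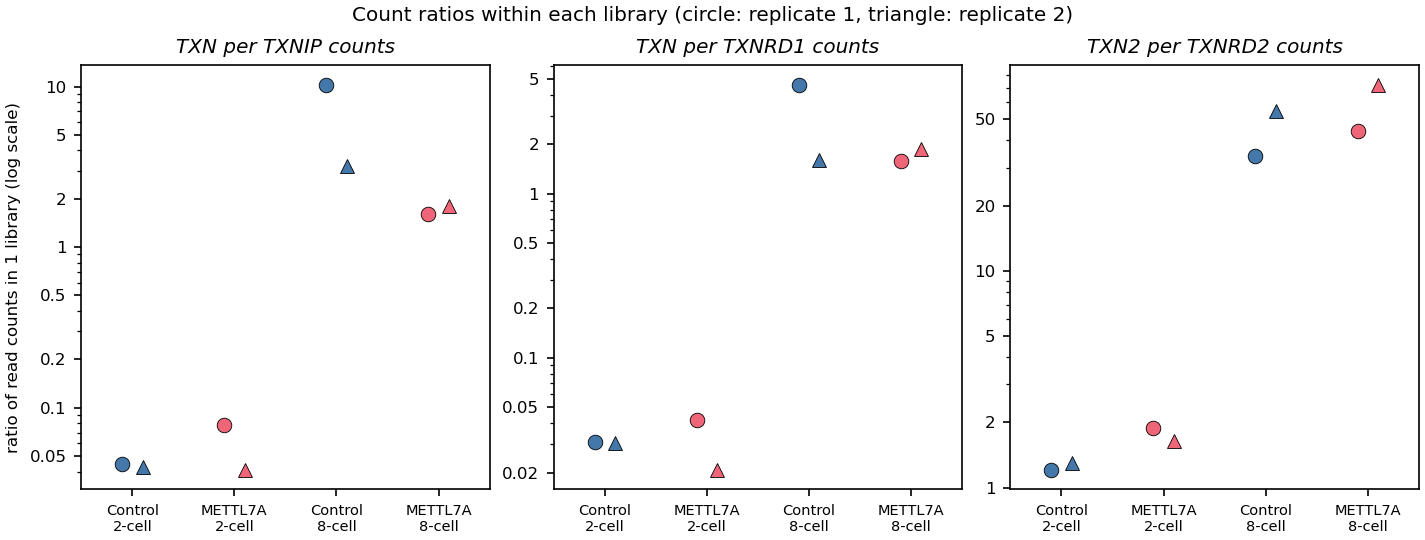
Ratio of read counts within each of the 8 libraries on a logarithmic axis, for TXN per TXNIP, TXN per TXNRD1 and TXN2 per TXNRD2, with circles for replicate 1, triangles for replicate 2, blue for Control and red for METTL7A. In each panel the 4 libraries of the 8-cell stage lie above the 4 of the 2-cell stage.

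A further 39 genes covered reductases and recycling, thioredoxin-like proteins, glutaredoxins, enzymes reduced by thioredoxin, and partners of thioredoxin or relatives of TXNIP. Of these, 37 could be tested. In Control embryos 12 rose, 5 fell and 20 did not pass from the 2-cell to the 8-cell stage. Their median log2 fold change was -0.01. Of all genes 29.9% rose and 22.8% fell. Without Control 8-cell replicate 1 it was 7 of the 37 that rose and 11 that fell, and 27.2% and 23.7% of all genes. In METTL7A-injected embryos 4 rose and 6 fell, where 23.1% and 17.1% of all genes did. The difference between the 2 stage changes passed in 0 of the 37 by edgeR, and in 0.0124% of all genes. DESeq2 called 4 of the 37 lower for this difference, as it did 4.22% of all genes.

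Of the 7 genes listed for enzymes reduced by thioredoxin, 4 rose in Control and 0 passed in METTL7A-injected embryos. Over all genes 29.9% rose in Control, and 40.2% changed in METTL7A-injected embryos. The difference between these 2 stage changes passed in 0 of the 7 by edgeR (edgeR adjusted p = 0.178 for MSRB2 and 0.223 for MSRA). In Control embryos the methionine sulfoxide reductases MSRA (log2 fold change 6.69, edgeR adjusted p = 0.00545), MSRB3 (6.28, SE 1.01), MSRB1 (5.03, SE 1.49) and MSRB2 (2.92, SE 0.777), which repair oxidised methionine, all rose, with MSRA going from 5 and 0 counts to 372 and 37 counts, and without Control 8-cell replicate 1 MSRA stood at 4.28 and MSRB3 at 4.18, while MSRB1 and MSRB2 lost their calls (1.29 and 1.53). Only the Control 8-cell libraries carried MSRA past the low-count filter, so its calls are a description and no support for a change. In METTL7A-injected embryos MSRA went from 1 and 2 counts to 0 in both libraries. MSRB3 stood there at 2.42 (SE 0.917, edgeR adjusted p = 0.0616), MSRB1 at 0.62 (SE 1.42) and MSRB2 at -1.47 (SE 0.751). RRM1, RRM2 and RRM2B encode subunits of ribonucleotide reductase, which makes deoxynucleotides. These 3 genes stood at -0.32, 0.65 and -0.04 in Control and at -0.85, 0.60 and 0.55 in METTL7A-injected embryos and did not pass.

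Glutaredoxins, the glutathione-dependent counterparts of thioredoxin, rose in 3 of 4 cases in Control embryos. The share of all genes that rose was 29.9% in Control and 23.1% in METTL7A-injected embryos. GLRX2, a mitochondrial form, stood at 0.25 and 0.43 CPM in the 2-cell and 83.4 and 40.9 CPM in the 8-cell libraries. Its log2 fold change was 7.49 (SE 0.717, edgeR adjusted p = 0.000124). GLRX5, which serves the assembly of iron-sulfur clusters, rose by 2.79 and GLRX by 1.56. Without Control 8-cell replicate 1 GLRX2 stood at 6.87 and GLRX5 at 1.48, and GLRX lost its call (0.54). In METTL7A-injected embryos 1 of the 4 rose, GLRX2, by 6.87 (SE 0.703, edgeR adjusted p = 0.000144), while GLRX5 (0.79, edgeR adjusted p = 0.271), GLRX (0.77, edgeR adjusted p = 0.259) and GLRX3 (-0.17, edgeR adjusted p = 0.675) did not pass. The difference between the 2 stage changes passed in 0 of the 4 by edgeR.

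Among the 15 tested genes of thioredoxin-like and thioredoxin-domain proteins 5 rose and 3 fell in Control and 2 rose and 5 fell in METTL7A-injected embryos, to be read against 29.9% and 22.8% of all genes in Control and 23.1% and 17.1% in METTL7A-injected embryos. Of the 5 that rose in Control, TXNL4A and TXNDC12 lost their calls without Control 8-cell replicate 1 (edgeR adjusted p = 0.176 and 0.0574). TXNDC17, a small cytosolic thioredoxin-related protein, rose in Control embryos by 4.88 (SE 0.801), from 1.94 and 1.90 CPM to 95.6 and 17.9 CPM, or by 3.20 without Control 8-cell replicate 1. In METTL7A-injected embryos TXNDC17 stood at 1.78 (SE 0.721, edgeR adjusted p = 0.0769). The difference between its 2 stage changes did not pass (-3.10, SE 1.01, edgeR adjusted p = 0.214). TMX1, a membrane-bound thioredoxin-like protein of the endoplasmic reticulum, rose in Control embryos by 2.32, whereas TXNDC11 (-3.04) and NXN, or nucleoredoxin (-2.56), fell, and the values without Control 8-cell replicate 1 were 1.77, -3.28 and -2.31. In METTL7A-injected embryos TXNDC11 (-2.51) and NXN (-1.39) fell as well, as did TMX4 (-2.18), TXNDC15 (-2.03) and TMX3 (-1.34), and TXNDC9 (1.97) and TMX1 (1.11) rose. Control embryos shared the rise of TXNDC9 (1.65, SE 0.309, edgeR adjusted p = 0.00222) and the fall of TMX4 (-1.43, SE 0.288, edgeR adjusted p = 0.00315). Without Control 8-cell replicate 1 these 2 stood at 1.34 and -1.36.

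Of the 7 genes listed under reductases and recycling, sestrins among them, 1 passed in each treatment. The share of all genes that changed was 52.7% in Control and 40.2% in METTL7A-injected embryos. SESN2, a stress-induced sestrin, fell in Control embryos from 107 and 110 CPM to 6.78 and 9.62 CPM (log2 fold change -3.72, SE 0.411, edgeR adjusted p = 0.00022, and -3.51 without Control 8-cell replicate 1) and by 2.08 in METTL7A-injected embryos (SE 0.387, edgeR adjusted p = 0.0029). SRXN1, the sulfiredoxin that restores overoxidised peroxiredoxins, stood at -0.38 (SE 0.474) and -1.31 (SE 0.483) and did not pass. The mitochondrial reductase TXNRD2 stood at -0.32 (SE 0.691) and -1.53 (SE 0.744), also short of the test. Of the relatives of TXNIP, ARRDC2 fell in Control embryos (-1.50, edgeR adjusted p = 0.022), a call lost without Control 8-cell replicate 1 (-1.03, edgeR adjusted p = 0.0545) and kept in 10 of 14 alternatives. ARRDC3 rose in METTL7A-injected embryos (1.21, against -0.26 for ARRDC2), and MAP3K5, a kinase held in check by thioredoxin, did not pass in either.

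Between METTL7A-injected and Control embryos 0 of the 37 differed at the 2-cell stage by edgeR, where 2 had an unadjusted p under 0.05 and DESeq2 called 1 lower, as it did 0.786% of all genes. At the 8-cell stage 3 of the 37 fell, 0 rose and 34 did not pass, where 4.55% of all genes fell and 0.737% rose. DESeq2 called 9 of the 37 lower and 1 higher, and 10.6% and 4.14% of all genes. MSRA had 372 and 37 counts in Control and 0 in both METTL7A libraries. With 3 counts over the group as the floor, MSRA was at least 99.6-fold lower, or at least 18.5-fold from Control replicate 2 alone. Its call (edgeR adjusted p = 0.0368) is a description only, since MSRA passed the low-count filter through the Control 8-cell libraries alone. MSRB3 fell from 105 and 14.1 CPM to 2.51 and 4.77 CPM (log2 fold change -4.03, SE 0.899, edgeR adjusted p = 0.0422), and GLRX5 from 348 and 88.9 CPM to 44.7 and 45.3 CPM (-2.28, SE 0.558, edgeR adjusted p = 0.0497). Without Control 8-cell replicate 1 MSRB3 stood at -1.96 and GLRX5 at -0.99 (edgeR adjusted p = 0.118 and 0.133). Without that library, and without any one of the METTL7A libraries, 0 of the 37 were called, and without Control 8-cell replicate 2 the numbers were 2 higher and 15 lower, with 20% and 20.8% of all genes.

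The genes whose log2 CPM followed each member most closely over the 8 libraries were searched among 8654 genes with a mean of 10 CPM or more. These libraries share groups and stage, so high likeness was common, and it is given as a description. TXN was most like ROMO1 and RPL32 (Pearson r 0.999 and 0.9989) and TXN2 most like RPL29, PRDX1 like PFDN2 and REEP5, PRDX4 like COX5A and RBM3, PRDX6 like ST13 and CADM1, PRDX5 like DTYMK and FTO and PRDX3 like HDGFL3 and LDHA. The nearest genes to PRDX2 were MNF1 and GSTM3, those to TXNRD1 were PHF8 and SEC23IP, and those to TXNIP were TMC4 and MAP4K3, the last with the lowest value (r 0.9401).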

How the data were processed

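Libraries of polyA RNA were made from unextracted embryos with a SMART-Seq v4 kit and Nextera XT, per the labels' protocols, and do not mark strand. The authors deposited raw read counts per gene. Trim Galore 0.6.10, FastQC, STAR 2.7.11b, Subread 2.0.6 and DESeq2 1.44.0 are named in the submitters' processing notes. Genome build, annotation and counting options were not given in the sources used here, so no coordinates are reported, and reads shared with near-identical copies of a gene may have been split or dropped. Columns were matched to samples by name, with 0 left over. An entry that names no gene, 0.184% to 0.95% of a library, was left out. Counts of the blastocyst were not used here.

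In R 4.3.3, edgeR 4.0.16 was run with TMM factors, filterByExpr (minimum count 10, minimum total 15) and the robust quasi-likelihood test, with 1 coefficient per group, so that the 4 groups shared their estimate of the spread. SE is the log2 fold change divided by the square root of F. DESeq2 1.42.0 was an alternative. The code was tested on simulated data. The genes and lists were chosen with earlier results of these data known. All 10 genes were named, and of the further genes at most 4 per role and comparison, those past the threshold with the largest change, besides genes named for their role. For the thioredoxin-like and thioredoxin-domain proteins all genes that passed between the stages were named.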

Additional observations from a re-analysis of the deposited data

How the results depend on the processing

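Each count of calls and each of the 10 fold changes was recomputed under 14 alternatives, or 13 for the difference between stages. With 1 library left in a group that library is assumed to vary like the others. Of 690 recomputed fold changes 590 kept their direction and their side of the threshold, 51 came to pass the test, 22 lost it and 27 changed sign, all 27 from values that had not passed. Leaving out 1 library at a time gave 5 to 9 of the 10 genes (5127 to 10759 of all genes) for the stage change in Control, 2 to 6 (3276 to 9149) for that in METTL7A-injected embryos, 0 in each case (2 to 50) for METTL7A at the 2-cell stage, 0 to 9 (2 to 7129) at the 8-cell stage and 0 to 7 (0 to 4568) for the difference between stages. With the 2 Control 2-cell libraries summed, 5 of the 10 genes and 5404 of all genes were called in Control, 1 of the 10 (PRDX4) at the 8-cell stage and 0 of all genes for the difference between stages, where 2 had been. Fits of only the groups compared called 5 of the 10 and 6444 of 15460 genes for the Control stage change. For the METTL7A stage change they called 6 of the 10 and 7850 of 14546 genes. They called 1 of the 10 and 1005 of all genes at the 2-cell stage, and 283 of all genes at the 8-cell stage. DESeq2 called 5 of the 10 and 7129 of all genes for the METTL7A stage change, 158 of all genes at the 2-cell stage, 3 of the 10 and 2374 of all genes at the 8-cell stage, and 2 of the 10 and 917 of all genes for the difference. Without the low-count filter, with 24082 genes tested, these were 5 and 7377, 100, 7 and 2767, and 4 and 1354. DESeq2 size factors in edgeR left 1 gene of the table for the difference. Whether same-numbered libraries share an origin is not stated in the labels. Their deviations from the group means correlated at -0.0248 to 0.0491, which with 2 libraries per group cannot exclude a pairing. With the replicate block 5 of the 10 genes and 6462 of all genes were called for the METTL7A stage change, 1 of the 10 (PRDX5) at the 8-cell stage and 24 of all genes for the difference.

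Changes of sign were found in 7 of the 10 genes. For METTL7A at the 2-cell stage PRDX2, PRDX5 and TXNRD1 turned to 0.00512, 0.0265 and 0.0186 with DESeq2 size factors in edgeR, to 0.00516, 0.0268 and 0.0187 by DESeq2 and to 0.0159, 0.0375 and 0.0354 in the fit of 2 groups, and with 1 library left out they ran from -0.70 to 0.44, -0.35 to 0.29 and -0.21 to 0.20, PRDX4 from -0.0689 to 0.50 and TXN from -0.35 to 0.24. Left-out ranges for the METTL7A stage change were -0.0036 to 1.14 for PRDX2 and -0.0604 to 0.58 for PRDX5, at the 8-cell stage -0.91 to 0.0729 for PRDX1 and -2.25 to 0.16 for PRDX6, and for the difference -2.05 to 0.0412 for TXN. The cause was not tested. The 57 to 82 TXN counts per 2-cell library limit the precision of its fold changes.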
